A study of Drosophila melanogaster with 4 samples.

Results

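The alpha-esterase genes of Drosophila melanogaster form a cluster on chromosome arm 3R, and 8 of them were followed here in whole larvae. The members were alpha-Est1, alpha-Est2, alpha-Est3, alpha-Est5, alpha-Est6, alpha-Est8, alpha-Est9 and alpha-Est10, taken by the gene symbol that the array's annotation gives to each probe set. Of the 8 listed genes 7 had a probe set with that 1 symbol, with 1 probe set each, among 11982 genes with such a probe set in all. alpha-Est1 had none in the annotation used here and was not analysed here. The group was chosen by the measured signals of the Gyc76C and GFP arrays, because of how far alpha-Est2 was lower in that comparison, so the members' values in it are given as a description, without a test.

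Gene expression was measured with 1-colour Affymetrix arrays on total RNA from entire larvae, grown at 25 °C to the third instar. In control larvae C564-Gal4 drove UAS-GFP, and in experimental larvae it drove UAS-Gyc76C, so both genotypes carried the same driver and differed in the transgene. The sample titles do not say whether the transgene lines shared a genetic background. A difference in background would coincide with the transgene and was not tested. Gyc76C is a membrane receptor that makes cGMP, and the labels describe its overexpression as being in the fat body. The C564-Gal4 driver is known to be active in blood cells and other larval tissues as well as in the fat body. Each genotype had 2 arrays, labelled as biological replicas, and nothing states that they came from separate cultures, so p-values measure the spread between these samples.

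Carboxylesterases cut carboxylic ester bonds with a catalytic serine, and the alpha-esterases are the cluster of this family whose relatives in other insects are known for handling dietary esters and insecticides. In the sheep blowfly Lucilia cuprina, changes in the alpha-E7 enzyme give resistance to organophosphates. Genes of such a cluster arose by duplication, lie close together and can differ widely in where and when they are expressed. The substrates of most of the enzymes in Drosophila are not settled.

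The arrays had been scaled by the authors to a common trimmed mean of 500.0. The median signal of the 11261 tested probe sets was 322.1 and 333.1 on the GFP arrays and 292 and 295.4 on the Gyc76C arrays, so the median log2 fold change of all tested probe sets was -0.16. Array pairs of 1 genotype correlated at r = 0.966 and r = 0.968 across probe sets, which are not independent replicates, and pairs of different genotype at 0.88 to 0.91. The mean log2 signal of 16 hybridization control probe sets was 9.31 and 9.34 on the GFP arrays and 8.37 and 9.00 on the Gyc76C replicate 1 and 2 arrays. The transgene was visible as labelled: a probe set that carries the symbols Gyc76C and CG42637, the brightest of its kind, gave 1047 and 928 on the GFP arrays and 16049 and 20993 on the Gyc76C arrays. Probe sets were tested if their mean signal reached 46.3, the 40th percentile, which is called the filter level here.

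alpha-Est2 was bright in control larvae and at the bottom of the signal range in Gyc76C larvae. Its signals were 4551 and 2204 on the GFP arrays and 3.41 and 5.72 on the Gyc76C arrays (means 3377 ± 1659 and 4.57 ± 1.63, SD, n = 2 each). The genotypes did not overlap, and both Gyc76C signals lay under the filter level of 46.3. Setting the Gyc76C arrays at that level, the geometric mean of alpha-Est2 was at least 68.4-fold lower in Gyc76C larvae. That limit concerns the dim signals alone and leaves aside the spread between the GFP arrays. The log2 fold change as measured was -9.48 (SE 0.44), the lowest of all 11261 tested probe sets. Value and rank rest on how very dim signals are treated. With 16 added to each signal the value was -7.28, still the lowest. With signals under the filter level raised to it, the value was -6.09 and came at rank 3 from the lowest, after Sgs3 (94.2-fold lower, with no signal under the level) and CG32071 (at least 72.0-fold lower). alpha-Est2 entered the tested set through its GFP signals alone. RNA of whole larvae cannot tell fewer cells of a type from less RNA per cell.

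**Figure D1:**
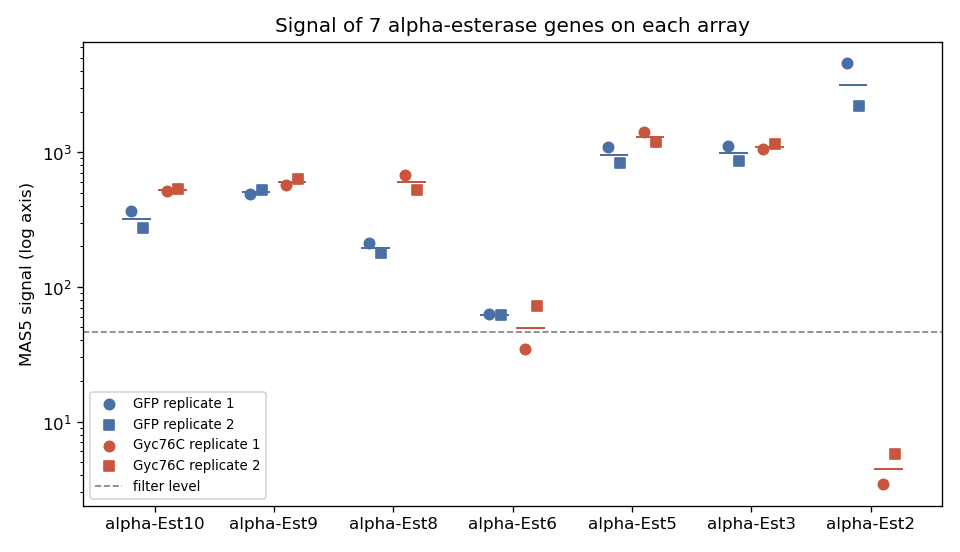
MAS5 signal (log axis) of 7 alpha-esterase genes on each of the 4 arrays; blue marks are GFP and red marks Gyc76C, circles replicate 1 and squares replicate 2, short lines the geometric mean of a genotype and the dashed line the filter level of 46.3. alpha-Est2 has 4551 and 2204 on the GFP arrays and 3.41 and 5.72 on the Gyc76C arrays, and the largest difference among the other genes is 3.08-fold, in alpha-Est8; signals of different probe sets are not on a common scale of RNA amount.

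Next to alpha-Est2 in the gene order lies alpha-Est3, and its signal was nearly level. It gave 1118 and 864.9 on the GFP arrays and 1053 and 1142 on the Gyc76C arrays. The genotypes overlapped, with a log2 fold change of 0.16 (SE 0.17), and the sign turned to -0.03 without GFP replicate 2. The difference between its genotype means was 1.12-fold.

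alpha-Est8 had the largest difference upward among the members. Its signals were 211.2 and 178.6 on the GFP arrays and 680.5 and 524.6 on the Gyc76C arrays. It was 3.08-fold higher in Gyc76C larvae (log2 fold change 1.62, SE 0.20), and the genotypes did not overlap. Of the tested probe sets 97.4% had a lower log2 fold change.

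alpha-Est10, at the end of the cluster, was also higher in Gyc76C larvae. It gave 368.6 and 275.7 on the GFP arrays and 516.1 and 536.2 on the Gyc76C arrays, 1.65-fold higher (log2 fold change 0.72, SE 0.19). Its genotypes did not overlap. A share of 88.6% of the tested probe sets had a lower log2 fold change.

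alpha-Est5 and alpha-Est9 showed smaller differences in the same direction. For alpha-Est5 the GFP signals were 1101 and 834.2 and the Gyc76C signals 1409 and 1196, a 1.35-fold difference (log2 fold change 0.44, SE 0.18). For alpha-Est9 they were 492.9 and 527.2 against 568.5 and 630.2, or 1.17-fold (log2 fold change 0.23, SE 0.15). In neither gene did the genotypes overlap, but in alpha-Est9 the lowest Gyc76C signal stood close above the highest GFP signal. With each array centred on its median the alpha-Est9 value was 0.39.

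alpha-Est6 was dim in both genotypes and its direction was not settled. Its signals were 62.6 and 62.0 on the GFP arrays and 34.7 and 71.7 on the Gyc76C arrays. The 2 Gyc76C arrays lay on either side of the GFP arrays and 1 of them was under the filter level. The log2 fold change was -0.32 (SE 0.53), or 0.20 without Gyc76C replicate 1.

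Across the 7 members the log2 fold changes thus ran from -9.48 in alpha-Est2 to 1.62 in alpha-Est8, and without alpha-Est2 from -0.32 to 1.62. Values were above 0 in 5 members and below 0 in 2. The median was 0.23, against -0.16 for all tested probe sets. With centred arrays the members' median was 0.39, a shift that centring gives to every probe set alike. In 5 members the genotypes did not overlap, 4 with higher and 1 with lower signal in Gyc76C larvae. Of all tested probe sets 68.3% had genotypes that did not overlap, 26.9% with higher and 41.4% with lower signal in Gyc76C larvae, and nothing is read from the members' count. All 7 analysed members passed the filter on low signals.

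**Figure D2:**
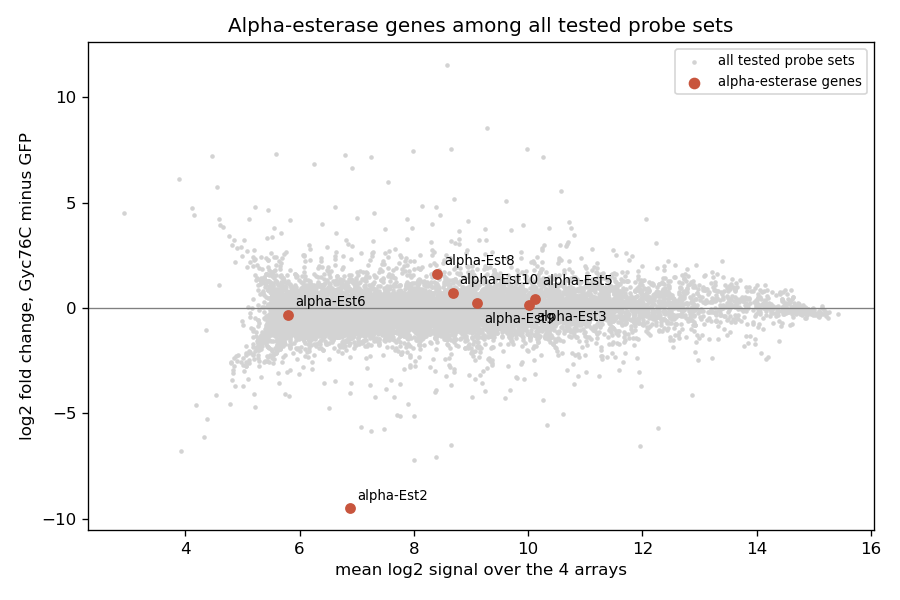
Log2 fold change, Gyc76C minus GFP, against the mean log2 signal over the 4 arrays; grey points are the 11261 tested probe sets and red points 7 alpha-esterase genes. alpha-Est2 is the lowest point of these unfloored values at -9.48 (rank 3 with signals under 46.3 raised to that level), alpha-Est8 lies at 1.62, and the other 5 members are within 1 log2 unit of 0.

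The members also varied between the 2 control arrays. The same GFP signals entered the comparison that chose the group, so these values are a description only. GFP replicate 1 was above GFP replicate 2 in 6 of 7 members, alpha-Est9 being the exception, whereas this held for 50.4% of all tested probe sets. In alpha-Est6 the GFP arrays were nearly equal, at 62.6 and 62.0. The median log2 difference between the GFP arrays was 0.37 over the members and 0.00 over all tested probe sets. For alpha-Est2 it was 1.05, with a GFP replicate 1 signal 2.06 times that of replicate 2. Among 2689 tested probe sets with a mean GFP signal above 1000, 2.42% had GFP replicates at least as far apart. Between the Gyc76C arrays replicate 1 was the higher in 2 of 7 members and in 47.4% of all tested probe sets. The median log2 difference was -0.12 over the members against -0.02 over all tested probe sets. Both Gyc76C signals of alpha-Est2 were under the filter level, so its place in that count is scatter among dim signals. The ratio of the GFP arrays was farther from 1 than that of the Gyc76C arrays in alpha-Est2, alpha-Est3, alpha-Est5 and alpha-Est10. Without GFP replicate 1 the alpha-Est5 value was 0.64 and without GFP replicate 2 it was 0.24.

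The genes around the members were followed through the gene order of the RefSeq annotation (assembly Release 6), which was used for neighbourhood alone, because the sources used here name no build for the array's annotation. From 1 end to the other the members stand in the order alpha-Est10, alpha-Est9, alpha-Est8, alpha-Est6, alpha-Est5, alpha-Est3, alpha-Est2 and alpha-Est1. Between alpha-Est8 and alpha-Est6 lies alpha-Est7, and between alpha-Est5 and alpha-Est3 lies alpha-Est4. Some members share their span with another annotated gene: Mics1 lies wholly inside alpha-Est9, CG42656 inside alpha-Est10 and the pseudogene alpha-Est4aPsi inside alpha-Est6. An antisense RNA gene overlaps alpha-Est3 (CR46128) and another overlaps alpha-Est2 (CR46129). The sources used here do not place a probe set within its gene, so signal from such partners was not told apart.

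Neighbouring genes moved in both directions. The list held 20 genes that lie among the members or are the 5 nearest protein-coding genes on either side, and 13 had a probe set, of which 9 passed the filter. By limma 2 rose and 2 fell at an adjusted p under 0.05, and 5 did not pass, against 24.6% of all 11261 tested probe sets called in either direction. CG14598, outside the cluster on the alpha-Est10 side, rose 3.17-fold, from 294.3 and 214.2 to 921.5 and 688.8 (log2 fold change 1.67, SE 0.23, limma adjusted p = 0.0043). It passed under all 13 alternatives run.

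Mics1, which lies inside alpha-Est9, fell while its host gene had a log2 fold change of 0.23. Its signals were 149.3 and 113.1 on the GFP arrays and 35.3 and 28.6 on the Gyc76C arrays, both of the latter under the filter level, so it was at least 2.80-fold lower (log2 fold change -2.03, SE 0.42, limma adjusted p = 0.0171). Leaving out a GFP array ended that call, with an adjusted p of 0.107 without replicate 1 and 0.0527 without replicate 2. CG42650, the outermost gene on the same side as CG14598, fell from 132.4 and 63.4 to 6.41 and 11.8 (log2 fold change -3.40, limma adjusted p = 0.0375). Its value was -0.98 (adjusted p = 0.119) with signals under the filter level raised to it, and its call also ended without either GFP array (0.308 without replicate 1 and 0.108 without replicate 2) and after quantile normalization (0.0615). CG42650 and Mics1 passed the filter through their GFP signals alone.

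alpha-Est7 is a cluster gene that the rule for members left out, and it was tested as a neighbour and as a carboxylesterase. Its signals were 3042 and 2294 on the GFP arrays and 3979 and 3861 on the Gyc76C arrays, a rise of 1.48-fold (log2 fold change 0.57, SE 0.16, limma adjusted p = 0.048). The call passed under 6 of 13 alternatives and had an adjusted p of 0.0745 without GFP replicate 2, and of 0.207 and 0.137 when Gyc76C replicate 1 or 2 was left out.

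Among neighbours that were tested and not called, wa-cup had the largest value (log2 fold change -1.12, SE 0.72). Its signals were 83.5 and 43.5 on the GFP arrays and 18.0 and 42.4 on the Gyc76C arrays. It passed the filter through GFP replicate 1 alone, and its value was -0.42 with signals under the filter level raised to it. Next came the reticulon-like gene Rtnl2 (-0.86, SE 0.39), alphaTub84D, an alpha tubulin gene (-0.45, SE 0.45), and CG1142 (-0.35, SE 0.17). Rtnl2 passed without Gyc76C replicate 2 (-1.39, adjusted p = 0.0273). The alphaTub84D probe set is of the kind that can match transcripts of several genes, so its signal is uncertain. The same holds for the probe sets of Nrt, Gli and crq, which are named below. On the far side of alpha-Est2 the nearest tested gene was the neuroligin gene Nlg3, after alpha-Est1 and CG45545, which have no values here. It gave 45.4 and 50.6 on the GFP arrays and 56.5 and 62.0 on the Gyc76C arrays, near the filter level. Nlg3 was named for its place and after its values were seen.

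**Figure D3:**
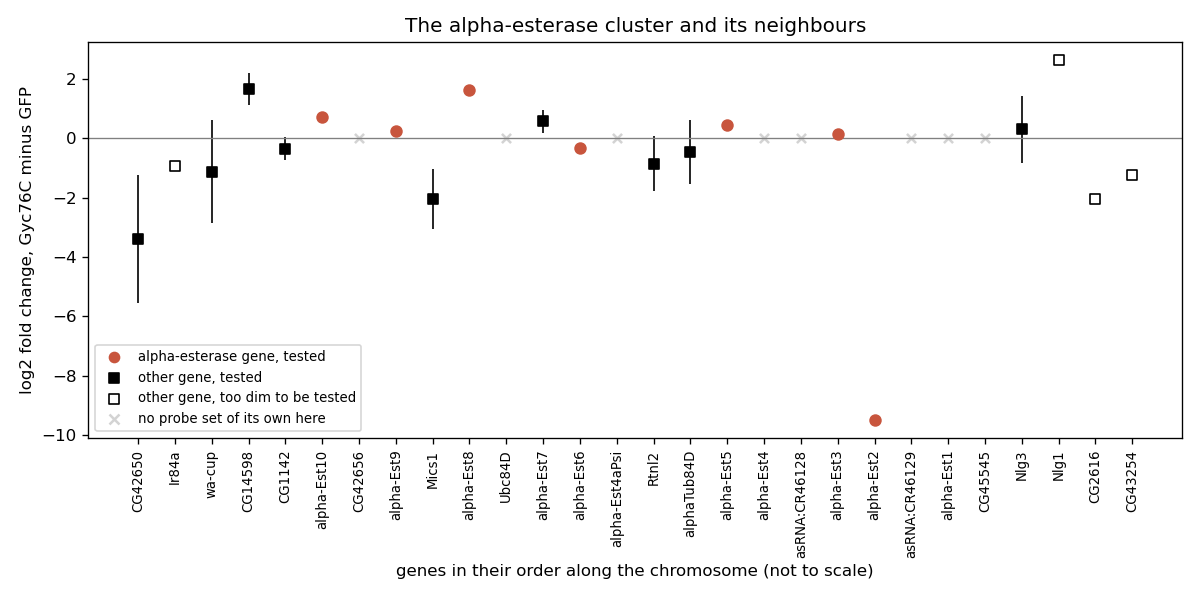
Log2 fold change, Gyc76C minus GFP, of the alpha-esterase genes (red circles) and their neighbours (black squares) in gene order, not to scale; vertical lines on tested neighbours are 95% intervals from limma, open squares are genes too dim to be tested and grey crosses at 0 mark genes with no probe set of their own here. alpha-Est2 at -9.48 stands next to alpha-Est3 at 0.16, and alpha-Est8 at 1.62 stands next to Mics1 at -2.03.

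Carboxylesterase genes outside the members, most of them elsewhere in the genome, also moved both ways. The list of 26 genes was made by family and not by enzyme activity, so it holds adhesion proteins such as Nrt. Of the list 24 had a probe set and 18 passed the filter. By limma 3 rose and 4 fell, and 11 did not pass, with a median log2 fold change of -0.06 against -0.16 for all tested probe sets. The share called was 38.9% of 18 genes, where 24.6% of all tested probe sets were called (11.3% higher and 13.3% lower), so the difference amounts to a few genes. Without Gyc76C replicate 1 the count was 2 of the list, and without Gyc76C replicate 2 it was 3.

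Est-P fell most in this list. It belongs to the beta-esterase pair of genes, next to Est-6, which had no probe set of its own here. Its signals were 1344 and 2166 on the GFP arrays and 174.7 and 208.2 on the Gyc76C arrays, an 8.95-fold fall (log2 fold change -3.16, SE 0.25, limma adjusted p = 0.000599). CG4757 rose most, from 28.2 and 30.2 to 328.4 and 352.2, at least 7.34-fold higher since both GFP signals were under the filter level (log2 fold change 3.54, SE 0.29, limma adjusted p = 0.00074). Both calls held under all 13 alternatives run. CG4757 passed the filter through its Gyc76C signals alone.

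The other called carboxylesterases changed by less. CG4382 fell from 123.4 and 158.2 to 43.6 and 62.6 (log2 fold change -1.42, limma adjusted p = 0.034). Ace, the acetylcholinesterase gene, whose enzyme ends cholinergic transmission, fell 1.97-fold (limma adjusted p = 0.034), and Jhedup, a duplicate of the juvenile hormone esterase gene, fell 1.91-fold (limma adjusted p = 0.0405). CG3841 rose 1.69-fold, from 443.7 and 328.8 to 652.3 and 640.1 (limma adjusted p = 0.03). None of these 4 calls held under every alternative: CG3841 passed under 10 of 13, CG4382 under 8 of 12, Jhedup under 6 of 13 and Ace under 5 of 12. Without Gyc76C replicate 1 the adjusted p was 0.143 for CG3841, 0.099 for CG4382, 0.0594 for Jhedup and 0.0694 for Ace. Without Gyc76C replicate 2 it was 0.1 for CG3841, 0.135 for Jhedup and 0.101 for Ace. Without GFP replicate 1 it was 0.134 for Jhedup and 0.06 for CG4382, and without GFP replicate 2 it was 0.147 for Ace and 0.168 for CG4382.

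Of the carboxylesterases that did not pass, the largest values were those of Nrt (neurotactin, an adhesion protein without esterase activity) at -1.01 (SE 0.30, limma adjusted p = 0.0513) and CG6414 at 0.72 (SE 0.28, limma adjusted p = 0.106). CG10175 had 0.45 and Gli, which encodes gliotactin of the septate junctions, had -0.44. Jhe, the juvenile hormone esterase gene itself, gave 163 and 142.6 on the GFP arrays and 138.5 and 155.7 on the Gyc76C arrays, and its genotypes overlapped. Jhe was named after its values were seen. CG6414 passed with the replicate number as a block (adjusted p = 0.0401) and without GFP replicate 1 (0.0359), Gli without GFP replicate 1 (0.00719), and Nrt with low signals raised to the filter level (0.0431) and with a robust variance (0.0495).

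**Figure D4:**
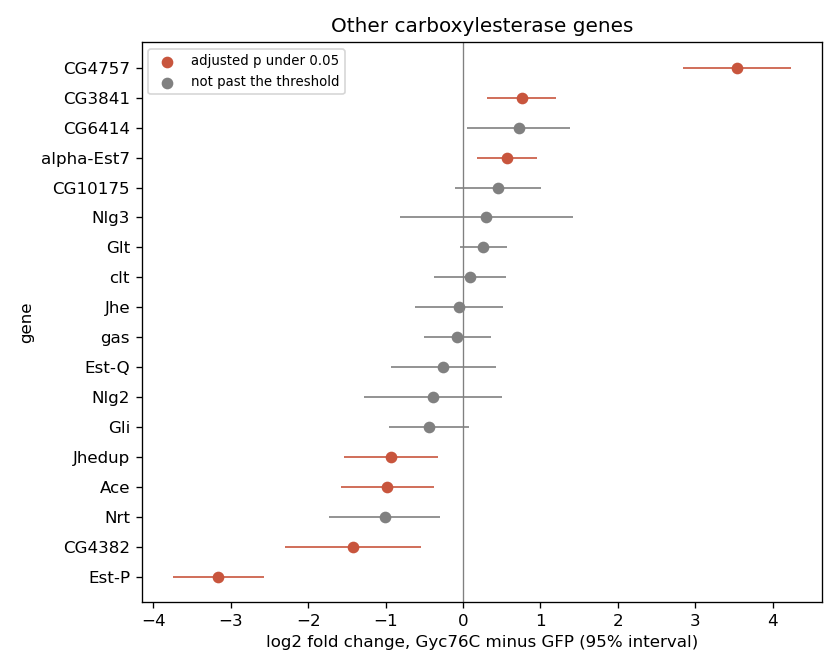
Log2 fold change, Gyc76C minus GFP, with its 95% interval from limma, for the 18 tested carboxylesterase genes outside the members; red marks passed a limma adjusted p of 0.05 and grey marks did not. CG4757 at 3.54 and Est-P at -3.16 lie apart from the other genes, which are between -1.42 and 0.76.

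The genes with signals most like those of alpha-Est2 across the 4 arrays are given as a description, since alpha-Est2 was itself chosen by these values. Likeness was measured as the distance between log2 signals after the mean of each probe set was subtracted, over 9258 other genes with a tested probe set. The nearest gene was CG11893, of the ecdysteroid kinase-like family, at a distance of 2.51 log2 units, with signals of 3161 and 3075 on the GFP arrays and 23.5 and 19.2 on the Gyc76C arrays. It was at least 67.3-fold lower in Gyc76C larvae. The salivary glue gene Sgs3 came next at a distance of 3.30, followed by CG32071 at 3.31, the ecdysone-induced gene Eig71Eg at 3.86 and CG1304 at 3.88. These distances include scatter among signals under the filter level. With such signals raised to that level, a setting added after seeing the data, CG11893 was again the nearest, at 0.71, followed by ng3 (0.76), CG32071 (0.89), Sgs5 (1.08) and Sgs3 (1.15), of which ng3, Sgs3 and Sgs5 are salivary glue genes, while CG1304 came at rank 9 and Eig71Eg at rank 661. CG11893 lies on 3R as alpha-Est2 does, Sgs3, CG32071 and Eig71Eg on 3L and CG1304 on X. Taking both GFP signals above 1000 and both Gyc76C signals under the filter level, limits set after the values were seen, 2 of 9259 genes qualified, alpha-Est2 and CG11893. In the opposite direction 4 genes did, also named after their values were seen: BomBc3, BomS2, CG13135 and CG3588.

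Markers of the tissues in a whole larva were counted in the same fit, where 24.6% of all tested probe sets were called. Of 8 salivary gland markers 7 fell and 0 rose by limma, with fkh not past the threshold. Their summed signal was 201833 and 187790 on the GFP arrays and 22215 and 19279 on the Gyc76C arrays. Most of these sums came from the glue genes Sgs3, Sgs4, Sgs5, Sgs7, Sgs8 and ng3. The remaining marker called, sage, fell 2.15-fold, from 1484 and 1264 to 648.7 and 624.5. The fkh signals were 228.4 and 327.3 on the GFP arrays and 211.9 and 304.7 on the Gyc76C arrays, and its genotypes overlapped. Of 13 listed midgut markers 10 had a probe set of their own, and 3 of these rose and 1 fell. betaTry rose 3.59-fold, Mal-A1 3.91-fold and Mal-A6 3.33-fold, and LManV fell 8.09-fold. The summed signals of the 10 were 126463 to 146476 in GFP and 133455 to 154698 in Gyc76C larvae. These sums came mostly from Jon65Aiii, Jon65Aiv, Jon25Bi and Jon25Bii, none of them called. Of 7 listed fat body markers 4 had a probe set of their own, and Lsp1alpha, Lsp1beta and Lsp1gamma had none. Of the 4 measured 2 fell, Fbp1 (2.93-fold, limma adjusted p = 0.00299) and Fbp2 (1.39-fold, limma adjusted p = 0.0499, close to the threshold). The summed signals of the 4 were 132734 to 135658 in GFP and 88849 to 105332 in Gyc76C larvae. Of 7 haemocyte markers 2 rose (PPO1 and PPO2) and 2 fell (eater and crq). PPO1, at a limma adjusted p of 0.0489, lay close to the threshold. The sums over the list were 11339 to 14813 in GFP and 17671 to 18262 in Gyc76C larvae. That difference came from PPO1 (4908 and 3642 against 6418 and 6236) and PPO2 (6158 and 4347 against 9100 and 8490). The log2 fold changes were -0.85 in eater, -1.38 in crq, 0.02 in Hml, 0.38 in NimC1 and -0.05 in Pxn.

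The remaining marker lists had few measured genes, and shares such as 1 of 4 or 1 of 3 lie near the 24.6% called over all tested probe sets. For the Malpighian tubule 1 of 4 rose, the gene salt, with list sums of 838.1 to 954.6 against 1587 to 1994. That difference in the sum came from salt, with 225.5 and 170.5 against 1284 and 1085, whereas Irk3 and NaPi-T had log2 fold changes of -0.43 and -0.47. For muscle 1 of 3 rose, Mlc2, with sums of 20468 to 23282 against 27179 to 28036. For epidermis and cuticle the single gene with a probe set, TwdlM, rose, from 38.7 and 60.2 to 166.4 and 165.4. In the nervous system list 0 of 3 tested genes were called, with sums of 344.5 to 374.5 against 311.5 to 331.9. Across these lists 1 marker, nSyb, was under the filter level on all 4 arrays, and no marker was listed at 0. The part of any tissue difference in the alpha-esterase values was not tested.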

How the data were processed

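Arrays of whole larvae were assigned to 2 genotypes, 2 arrays each, from the sample titles. The authors deposited linear intensity values, 1 per probe set and array; the submitters' processing notes name MAS5 without a version. This method assigns some signal even where nothing is detected, and no detection calls entered the work, so low signals scatter on the log2 scale. Precision is limited by the number of arrays: the median SE of a log2 fold change was 0.21.

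Of 18952 probe sets 183 were controls and were dropped. After a log2 transform without a pseudocount, the 11261 probe sets with a mean signal at or above the 40th percentile (46.3) were tested with limma (version 3.58.1, R 4.3.3), using lmFit and eBayes with a mean trend. Two-sided p-values were adjusted over all tested probe sets (Benjamini-Hochberg), with 2 residual and 4.64 prior degrees of freedom. The fit was run on simulated data with known changes as a check of direction only. That run gives no error rate for these arrays. Genes were named from probe sets with 1 symbol, except Gyc76C, and stand by their brightest probe set. Folds are ratios of geometric means, means ± SD are arithmetic, and a genotype's signals under 46.3 were set at it for folds given as at least so much. Such a fold is a limit as to dim signals only and not a bound on the spread between arrays.

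Named are all members, called genes of both lists with up to 4 uncalled ones of the largest change, the 5 genes most like alpha-Est2, Gyc76C and marker genes; genes named outside this rule are said to be so. The members and lists were chosen with earlier results of these data known. Alternatives covered scaling, filter, low signals, variance model, the replicate block and each array left out.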

Additional observations from a re-analysis of the deposited data

How the results depend on the processing

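With 13 alternatives, 5 of the 7 members kept the sign of their log2 fold change, and the exceptions, alpha-Est3 and alpha-Est6, turned without 1 array each. alpha-Est2 ranged from -10.01 without GFP replicate 2 to -6.09. alpha-Est6 did not pass the filter at the 60th percentile. The members' median was 0.23, and was 0.16 to 0.34 leaving out 1 array. With centred arrays it moved to 0.39, a shift shared by every probe set. The 2771 called probe sets became 1241 without the mean trend and 1204 to 3350 leaving out 1 array, and 45.9% of them were higher, against 62.7% with centred arrays and 54.8% after quantile normalization. The 7 other carboxylesterases called became 4 after quantile normalization, 3 without the filter, 3 without the mean trend and 2 to 7 leaving out 1 array. With centred arrays 5 were called, 3 higher and 2 lower. The 4 neighbours called became 2 after quantile normalization, 2 with the filter at the 60th percentile, 2 with low signals raised to the filter level and 1 to 4 leaving out 1 array. The causes were not tested. With the replicate number as a block 3101 probe sets, 8 other carboxylesterases and 4 neighbours were called, all 10 called list genes among them; the labels do not say that a number pairs samples, and same-numbered arrays deviated with a correlation of 0.04. Signals near or under 46.3 limit what can be said of alpha-Est6 and of alpha-Est2 in Gyc76C larvae.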
